A study of Mus musculus with 8 samples.

Results

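The fibrillar collagens and the genes that shape the interstitial matrix around them were followed in mouse livers after bile duct ligation. The set held 36 genes, taken by symbol from a list of matrix genes, out of 53816 gene IDs in the deposited tables, and each symbol matched 1 ID. Whole liver was sequenced from 4 mice labelled as overexpressing Myc in liver sinusoidal endothelial cells and from 4 wild-type mice. Both groups had undergone ligation of the bile duct, a surgical block of bile flow that injures the ducts and scars the liver, and no unligated liver was analysed here. The labels name neither the promoter or Cre line behind the overexpression nor the strain, age, sex or time after surgery. Nothing in the labels says which mice were littermates, so each library was taken as 1 mouse and the p-values measure the spread between these 8 libraries.

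Fibrous collagen is built in steps. Prolyl hydroxylases and the chaperone Serpinh1 prepare the chains in the endoplasmic reticulum, the secreted molecules assemble into fibrils, and lysyl oxidases cross-link them. Type I and type III collagen form the bulk of liver scar, type V collagen starts fibrils, and the small proteoglycans decorin, lumican and biglycan bind and space them. Elastin is laid on fibrillin microfibrils, and thrombospondins, tenascin and periostin are matricellular proteins that signal rather than bear load. In cholestatic liver these genes are known mainly from hepatic stellate cells and portal fibroblasts, while plasma fibronectin comes from hepatocytes. In bulk liver, fewer cells of a type and less RNA per cell cannot be told apart.

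Aligned bases ranged from 5.29 to 6.74 Gb per library. Transcript levels are in TPM (transcripts per 1000000, scaled for gene length), group values are means ± SD over 4 libraries, and group differences are Myc-labelled minus control on log2(TPM + 1). Myc itself did not follow the labels. It stood at 339, 356, 25.6 and 249 TPM in Myc-labelled replicates 1 to 4, against 272, 207, 554 and 89.2 TPM in control replicates 1 to 4 (log2 difference -0.45 ± 0.95 SE, limma adjusted p = 1.0). Whether a transgene is counted under this gene is not given, so the mice are called Myc-labelled and every direction rests on that label. Xist, transcribed from the inactive X chromosome, was at 0.0454 to 0.0574 TPM in Myc-labelled replicates 3 and 4 and in control replicate 3, and at 32.8 to 43.3 TPM in the other 5 libraries. Over the 13055 genes that averaged 1 TPM or more, limma called 0% higher and 0% lower at an adjusted p under 0.05. Without adjustment 1.26% of these genes were higher and 0.597% lower at p under 0.05 (165 and 78 genes), and with median-of-ratios scaling the split was 166 higher and 172 lower. The groups did not overlap in 0.935% of genes on the higher side and 0.322% on the lower side. Estimates were above 0 for 7570 of the 13055 genes and below 0 for 5485.

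The promoter windows of Col1a2, Col3a1 and Serpinh1 are shown because these were among the matrix genes whose levels followed Col1a1 most closely across the libraries. Each runs from 250 bases before to 50 bases after the gene start in RefSeq (build GRCm38.p6) and reads 5′ to 3′ on the gene's strand. Capitals mark the motifs searched on both strands, which were the CCAAT box, the TATA box (spelled TATAAA), the GC box (spelled GGGCGG), the E-box bound by Myc with Max (spelled CACGTG) and the AP-1 site (spelled TGANTCA). No marked matches overlap. The windows lie at chr6:4505368-4505667 (plus strand), chr1:45311288-45311587 (plus strand) and chr7:99353190-99353489 (minus strand).
Col1a2: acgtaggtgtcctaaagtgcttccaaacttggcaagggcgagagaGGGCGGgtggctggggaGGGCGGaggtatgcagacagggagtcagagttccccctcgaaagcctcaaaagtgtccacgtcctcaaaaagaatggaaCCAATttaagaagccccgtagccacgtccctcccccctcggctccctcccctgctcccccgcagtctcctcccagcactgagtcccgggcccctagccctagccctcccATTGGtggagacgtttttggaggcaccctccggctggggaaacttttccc
Col3a1: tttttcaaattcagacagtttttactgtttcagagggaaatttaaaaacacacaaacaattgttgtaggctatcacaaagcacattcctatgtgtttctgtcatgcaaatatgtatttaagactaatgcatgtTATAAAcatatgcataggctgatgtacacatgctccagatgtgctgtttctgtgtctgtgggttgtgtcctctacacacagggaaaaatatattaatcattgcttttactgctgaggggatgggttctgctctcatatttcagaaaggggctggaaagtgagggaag
Serpinh1: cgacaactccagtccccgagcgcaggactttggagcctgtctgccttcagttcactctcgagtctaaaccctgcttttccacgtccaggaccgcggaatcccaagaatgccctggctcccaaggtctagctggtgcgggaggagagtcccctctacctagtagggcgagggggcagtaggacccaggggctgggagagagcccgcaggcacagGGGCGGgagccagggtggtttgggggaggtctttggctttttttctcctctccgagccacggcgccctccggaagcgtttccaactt
Col1a2 held 2 GC boxes and 2 CCAAT boxes, 1 of them on the opposite strand, Col3a1 held 1 TATA box and Serpinh1 1 GC box. The deposited tables begin Col1a2 at base 4504814, upstream of this window. The promoter table matched 22 of the 36 genes, with 28 windows. A GC box stood in 20 of the 28 windows (71.4%), against 35.7% of all 32851 windows in the table. CCAAT stood in 6 of 28 (21.4%) against 37.4% of all windows, and TATAAA in 6 of 28 (21.4%) against 13.6%. The E-box CACGTG stood in 2 of 28 (7.14%), both of Fbln1, against 7.15% of all windows, and TGANTCA in 1 of 28 (3.57%), that of Col6a1, against 7.81%. These are letter matches and were not tested as binding sites.

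One Myc-labelled liver carried the highest matrix levels in the series. Myc-labelled replicate 1 was the highest of the 8 libraries for 30 of the 36 genes (83.3%), while 35.8% of the 13055 tested genes were highest there. For the 26 of those genes that were tested, its level was a median of 1.79-fold above the next library, over a range of 1.07 to 2.88. These genes were picked for being highest there, so each fold is above 1 by selection. The same fold was not taken over all tested genes. The lowest levels were shared between the groups, with 16 genes lowest in Myc-labelled replicate 3 and 16 lowest in control replicate 2. The 2 libraries differed over the whole table. Of the 13055 tested genes, 4655 were lowest in Myc-labelled replicate 3 and 1130 in control replicate 2. The median deviation of the 31 tested matrix genes from their own means was 1.14, 0.03, -0.62 and -0.10 log2 units in Myc-labelled replicates 1 to 4. It was -0.07, -0.66, -0.04 and 0.43 in control replicates 1 to 4. By this measure the highest liver was under the Myc label and the lowest was control replicate 2, with Myc-labelled replicate 3 close to it. The second highest was control replicate 4. Over all tested genes the same median lay between -0.21 in Myc-labelled replicate 3 and 0.24 in Myc-labelled replicate 1.

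**Figure D1:**
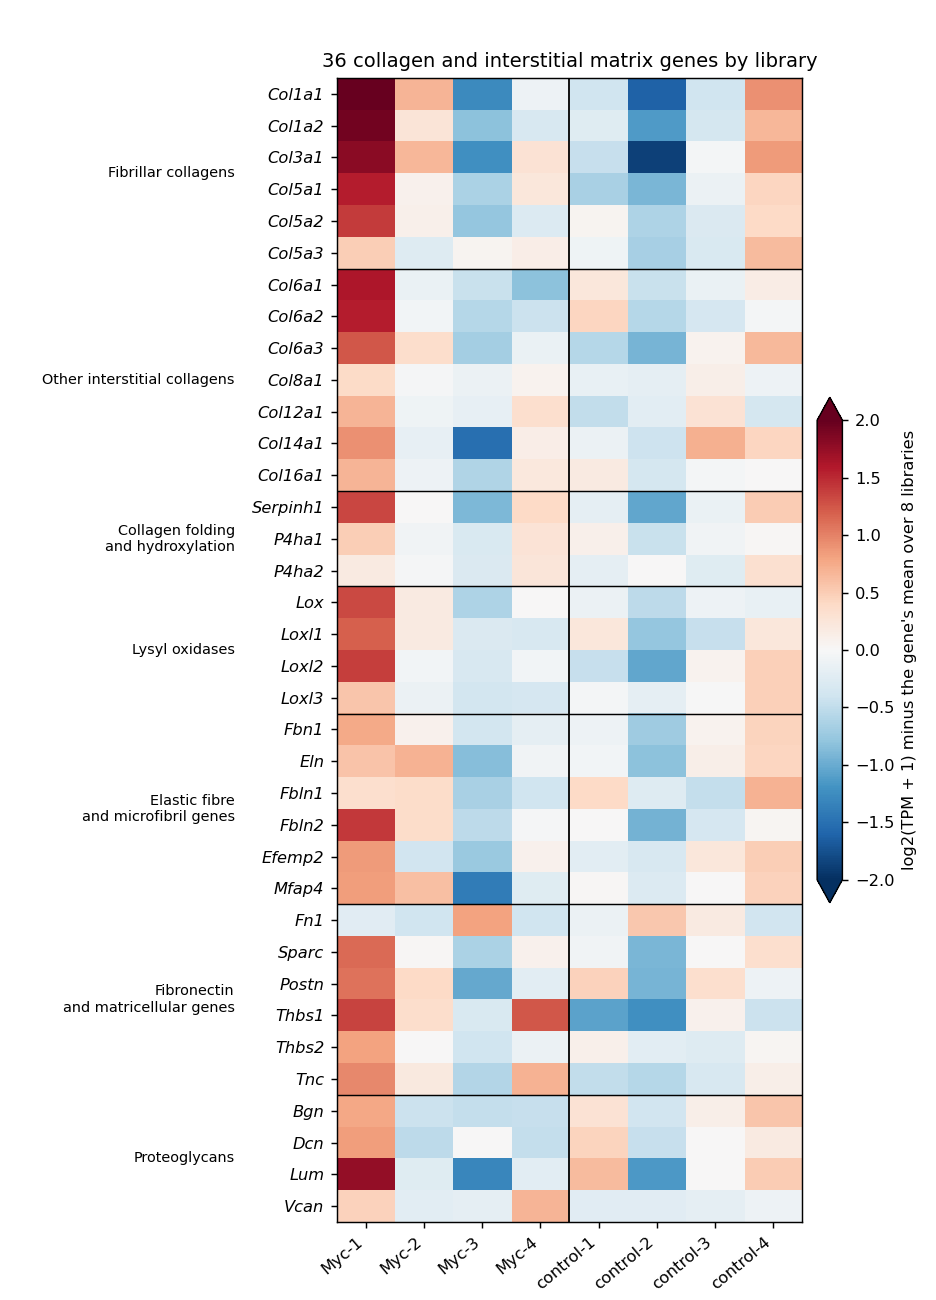
Log2(TPM + 1) of the 36 genes minus each gene's mean over 8 libraries, grouped by role, with the 4 Myc-labelled libraries left of the line and the 4 controls right of it. Red marks a level above the gene's mean; the column of Myc-labelled replicate 1 is red in all rows but that of Fn1, and Myc-labelled replicate 3 and control replicate 2 are mostly blue.

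The make-up of the summed matrix transcripts also differed between libraries. The 36 genes summed to 1696, 910.4, 1378 and 895.6 TPM in Myc-labelled replicates 1 to 4 and to 1150, 1152, 1185 and 1153 TPM in control replicates 1 to 4. The 13 collagen genes made up 19.7%, 13.5%, 3.60% and 10.6% of that sum in the Myc-labelled livers and 7.43%, 3.85%, 7.93% and 13.4% in the controls. Collagen transcripts were thus a minor part of the sum in every library, with the widest range among the Myc-labelled ones. Fn1, the fibronectin gene, made up 27.6%, 45.4%, 69.5% and 46.3% in Myc-labelled replicates 1 to 4 and 43.8%, 69.2%, 52.5% and 36.2% in control replicates 1 to 4. Decorin and biglycan together held 21.0% to 33.5% in the Myc-labelled livers and 20.6% to 36.8% in the controls. The livers with the smallest collagen share, Myc-labelled replicate 3 and control replicate 2, had the largest Fn1 share.

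**Figure D2:**
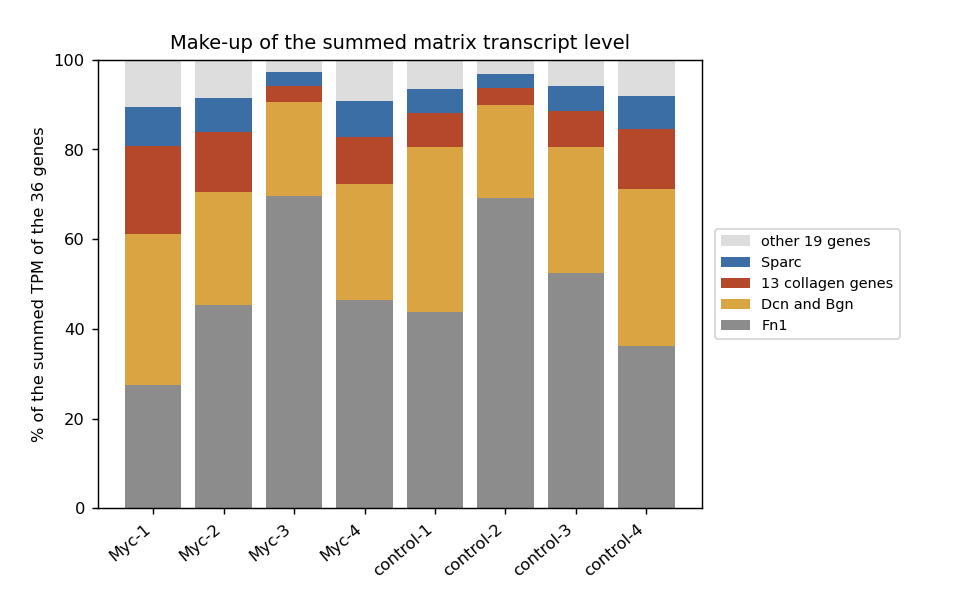
Share of the summed TPM of the 36 genes in each library (stacked to 100%), split into Fn1, Dcn with Bgn, the 13 collagen genes, Sparc and the other 19 genes. Fn1 holds 69.5% in Myc-labelled replicate 3 and 69.2% in control replicate 2, where collagens hold 3.60% and 3.85%.

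All 6 fibrillar collagen genes had estimates above 0, and none passed the test over all genes. Col1a1 (ENSMUSG00000001506.10, chromosome 11, 94936224 to 94953042, mm10), the alpha 1 chain of type I collagen, stood at 58.8, 19.9, 4.42 and 11.2 TPM in Myc-labelled replicates 1 to 4. The controls had 8.85, 3.23, 8.88 and 23.5 TPM, so Myc-labelled replicate 3 lay below 3 of 4 controls and the groups overlapped. Col1a1 differed by 0.76 ± 0.80 (SE) log2 units and the 95% interval ran between -1.12 and 2.63 (limma adjusted p = 1.0). Its partner chain Col1a2 stood at 69.5, 21.1, 9.45 and 13.7 TPM in the Myc-labelled livers, against 14.5, 7.44, 13.4 and 28.3 TPM in the controls (log2 difference 0.53 ± 0.62). Col3a1 (ENSMUSG00000026043.18, chromosome 1, 45311538 to 45349706), the single chain of type III collagen, was the most abundant collagen by mean TPM. It reached 85.9, 38.4, 9.66 and 29.6 TPM under the Myc label and 17.1, 5.80, 23.2 and 44.05 TPM in the controls. The mean of Col3a1 was 40.9 ± 32.3 TPM in Myc-labelled livers and 22.5 ± 16.1 TPM in controls (SD, n = 4 each), a log2 difference of 0.77 ± 0.76. In these 3 genes the Myc-labelled SD exceeded the control mean, and the highest library was 9.34 to 18.2 times the lowest.

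The type V chains, which start and limit fibrils, were lower in level, and Col5a1 and Col5a2 followed the same libraries. Col5a1 stood at 12.3, 3.77, 1.91 and 4.22 TPM in Myc-labelled replicates 1 to 4, against 1.85, 1.37, 3.15 and 5.07 TPM in control replicates 1 to 4. Its log2 difference of 0.63 ± 0.45 had the smallest p of the fibrillar genes and did not pass (limma adjusted p = 1.0). Col5a2 averaged 5.26 ± 4.52 TPM in Myc-labelled livers and 3.67 ± 1.42 TPM in controls. Col5a3 averaged 5.87 ± 1.48 TPM in Myc-labelled livers and 5.17 ± 2.48 TPM in controls, and its highest value, 8.69 TPM, was in control replicate 4. Col5a3 varied least of the 6, with a highest library 2.93 times the lowest.

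**Figure D3:**
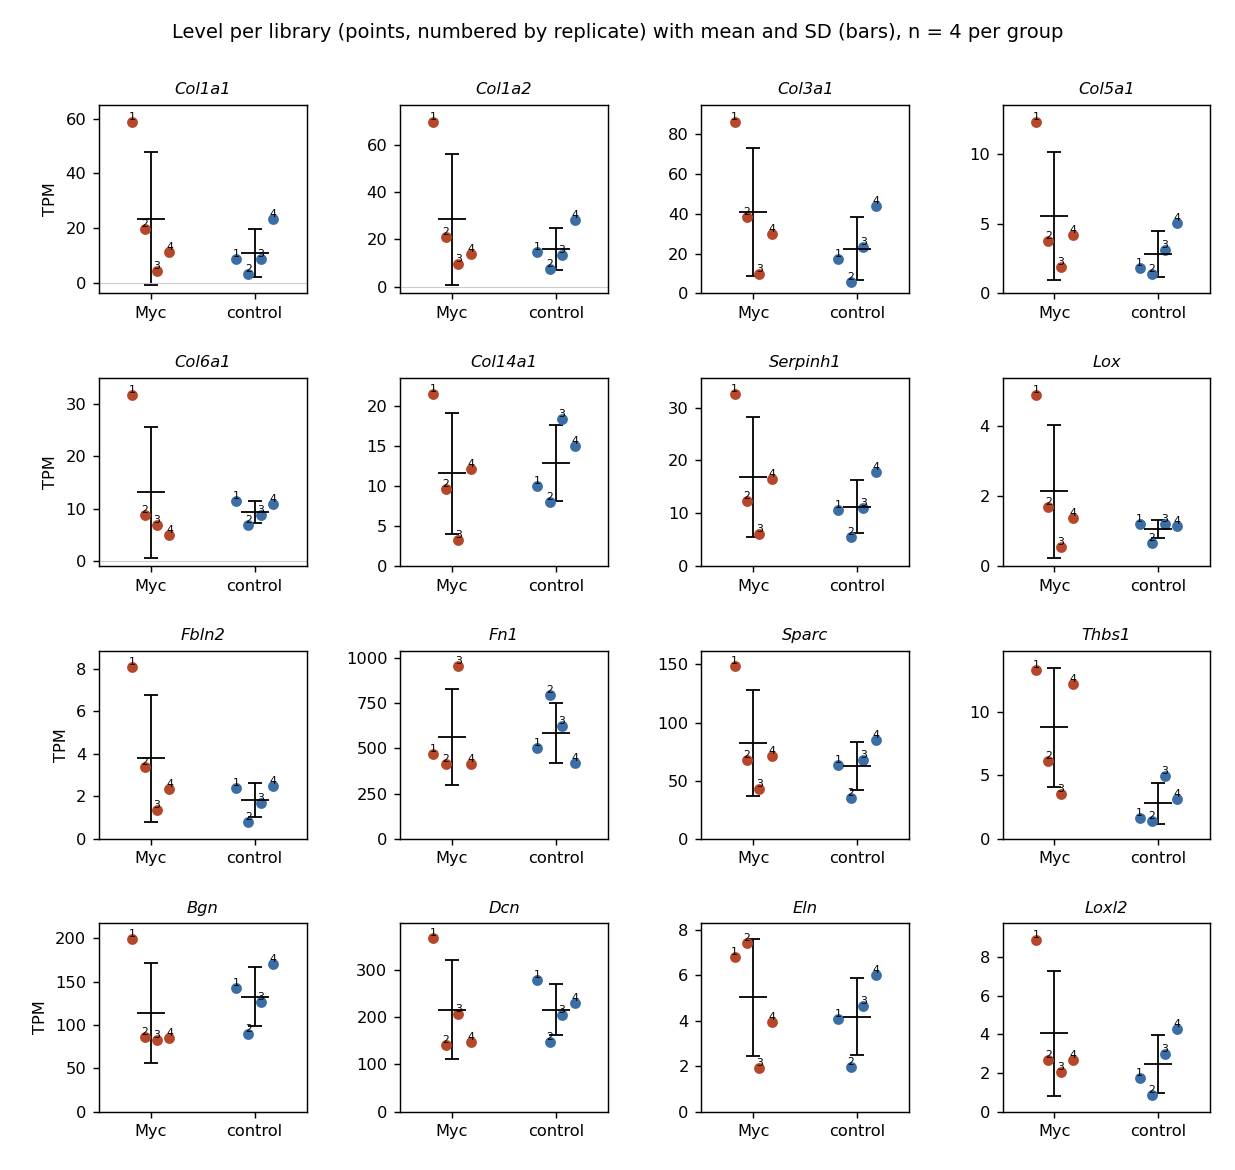
TPM of 16 matrix genes in each library (points numbered by replicate, Myc-labelled left, control right), with the group mean and SD as bars (n = 4 each). Myc-labelled replicate 1 stands apart in most panels, such as Col1a1 at 58.8 TPM, while Fn1 is highest in Myc-labelled replicate 3.

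Among the other interstitial collagens 4 of 5 tested genes had estimates above 0, with 0 called. Type VI collagen, a beaded microfibril at the cell surface, is made of 3 main chains. Its chain gene Col6a1 stood at 31.7, 8.80, 6.90 and 5.10 TPM in Myc-labelled replicates 1 to 4 and at 11.5, 6.84, 8.74 and 10.8 TPM in control replicates 1 to 4. Only Myc-labelled replicate 1 exceeded the controls, and Myc-labelled replicate 4 was the lowest of all (log2 difference 0.11 ± 0.47, limma adjusted p = 1.0). Col6a2 averaged 8.40 ± 7.70 TPM in Myc-labelled livers and 5.68 ± 2.06 TPM in controls. Col6a3 stood at 9.17, 4.48, 1.69 and 2.93 TPM under the Myc label, against 1.92, 1.27, 3.52 and 5.75 TPM in controls (log2 difference 0.39 ± 0.44), with overlapping groups. Col14a1, a collagen that sits on fibril surfaces, had the lowest estimate of the whole set at -0.31 ± 0.47 log2 units. It stood at 21.5, 9.58, 3.21 and 12.1 TPM in Myc-labelled livers, against 10.03, 7.97, 18.4 and 15.04 TPM in controls. Col16a1, another fibril-associated collagen, averaged 1.88 ± 1.06 TPM and 1.57 ± 0.385 TPM in Myc-labelled and control livers. Col12a1 (0.559 to 1.81 TPM in Myc-labelled livers, 0.249 to 1.15 TPM in controls) and the short-chain collagen gene Col8a1 (0.0349 to 0.464 TPM in Myc-labelled livers, 0 to 0.228 TPM in controls) fell below a mean of 1 TPM and were not tested.

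All 3 genes that fold and hydroxylate procollagen had estimates above 0, and 0 were called. Serpinh1, the collagen chaperone, stood at 32.6, 12.3, 6.14 and 16.4 TPM in Myc-labelled replicates 1 to 4, against 10.7, 5.47, 11.1 and 17.8 TPM in controls. Its log2 difference was 0.42 ± 0.47 (limma adjusted p = 1.0), and the groups overlapped. P4ha1 and P4ha2 encode the catalytic subunits of prolyl hydroxylase. P4ha1 averaged 4.68 ± 1.39 TPM in Myc-labelled livers and 3.91 ± 0.766 TPM in controls. P4ha2 stood at 7.02, 5.96, 4.81 and 7.38 TPM in Myc-labelled livers, against 5.26, 6.13, 5.02 and 7.86 TPM in controls. With a highest library only 1.64 times the lowest, P4ha2 was the steadiest of the 31 tested matrix genes by this ratio (log2 difference 0.05 ± 0.19).

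Of the lysyl oxidases, which cross-link collagen and elastin, 3 of 4 had estimates above 0 and 0 were called. Lox stood at 4.90, 1.70, 0.549 and 1.38 TPM in Myc-labelled replicates 1 to 4 and at 1.19, 0.654, 1.2 and 1.15 TPM in controls. The library with the highest Lox, Myc-labelled replicate 1, was 2.88 times the next one, the widest such gap among the 26 tested genes highest there (log2 difference of Lox 0.44 ± 0.35, limma adjusted p = 1.0). Loxl1, tied to elastic fibres, stood at 8.13, 3.53, 2.27 and 2.18 TPM in Myc-labelled livers, against 3.65, 1.33, 1.90 and 3.67 TPM in controls (log2 difference 0.39 ± 0.36). Loxl2 stood at 8.90, 2.66, 2.03 and 2.67 TPM in Myc-labelled livers, against 1.75, 0.84, 2.98 and 4.28 TPM in controls (log2 difference 0.48 ± 0.42). Apart from replicate 1, the Myc-labelled values of Loxl1 and Loxl2 lay within the control range. Loxl3 averaged 1.57 ± 0.84 TPM in Myc-labelled livers and 1.76 ± 0.594 TPM in controls. Loxl2 overlaps Gm27177 and Loxl3 overlaps Htra2 on the opposite strand, and the strand used in counting is not given.

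Elastic fibre and microfibril genes split evenly, with 3 estimates above and 3 below 0. Fbln2, a fibulin gene, stood at 8.07, 3.38, 1.35 and 2.34 TPM in Myc-labelled replicates 1 to 4, against 2.39, 0.769, 1.68 and 2.49 TPM in controls. Its log2 difference of 0.62 ± 0.39 was the largest of the group and did not pass (limma adjusted p = 1.0). Eln, which encodes elastin, was highest in Myc-labelled replicate 2. It stood at 6.80, 7.44, 1.90 and 3.96 TPM in Myc-labelled livers, against 4.07, 1.95, 4.66 and 6.02 TPM in controls (log2 difference 0.17 ± 0.37). Efemp2, a fibulin that brings lysyl oxidase to elastin, stood at 10.3, 3.79, 2.72 and 5.61 TPM in Myc-labelled livers and at 4.40, 4.00, 6.31 and 7.77 TPM in controls. The means of Efemp2 were 5.61 ± 3.36 TPM in Myc-labelled livers and 5.62 ± 1.75 TPM in controls. Fbn1, which encodes fibrillin, averaged 2.0 ± 1.12 TPM and 1.68 ± 0.836 TPM in Myc-labelled and control livers. Fbln1 averaged 1.0 ± 0.687 TPM in Myc-labelled livers and 1.29 ± 0.857 TPM in controls. Mfap4, a microfibril-associated glycoprotein, ranged from 0.143 to 4.34 TPM in Myc-labelled livers and from 1.49 to 3.13 TPM in controls. Efemp2 overlaps Mus81 and Mfap4 overlaps Mapk7 on the opposite strand.

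Thbs1 came closest to a group difference, and Fn1 ran against the rest of the set. Thbs1 (ENSMUSG00000040152.8, chromosome 2, 118111876 to 118127133) encodes thrombospondin, a matricellular protein known as an activator of latent TGF-beta. It stood at 13.3, 6.12, 3.55 and 12.2 TPM in Myc-labelled replicates 1 to 4, against 1.66, 1.39, 4.92 and 3.14 TPM in control replicates 1 to 4. Only control replicate 3 overlapped the Myc-labelled range, where it lay above Myc-labelled replicate 3. The mean of Thbs1 was 8.78 ± 4.70 TPM in Myc-labelled livers and 2.78 ± 1.62 TPM in controls. The log2 difference of Thbs1 was 1.32 ± 0.41, its 95% interval reached down to 0.42 and up to 2.22, and it did not pass (limma unadjusted p = 0.00851, adjusted p = 1.0 over 13055 genes). Thbs1 was the 1 gene of the 31 tested with an unadjusted p under 0.05, against the 1.26% of all genes that did so on the higher side. In the other settings tried, each left-out library included, its log2 difference lay between 0.78 and 1.64, with a limma adjusted p of 0.896 to 1.0.

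Fn1 (ENSMUSG00000026193.15, chromosome 1, 71585520 to 71653200) was the most abundant gene of the set. It stood at 468, 413, 958 and 415 TPM in Myc-labelled replicates 1 to 4, against 504, 798, 622 and 418 TPM in controls (log2 difference -0.11 ± 0.30, limma adjusted p = 1.0). Its highest values lay in the livers with the lowest collagen, Myc-labelled replicate 3 and control replicate 2. Sparc, a collagen-binding glycoprotein, stood at 148, 68.2, 42.7 and 71.5 TPM in Myc-labelled livers and at 63.8, 35.3, 67.6 and 85.2 TPM in controls (log2 difference 0.31 ± 0.37). Postn, the periostin gene, averaged 6.04 ± 4.14 TPM in Myc-labelled livers and 4.99 ± 2.23 TPM in controls. Thbs2, a second thrombospondin gene, averaged 1.09 ± 0.827 TPM in Myc-labelled livers and 0.785 ± 0.222 TPM in controls. Tnc, the tenascin gene, stood at 2.30, 0.924, 0.125 and 1.74 TPM in Myc-labelled livers, against 0.198, 0.141, 0.359 and 0.826 TPM in controls. Thbs2 and Tnc had means under 1 TPM and were not tested.

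Of the 4 proteoglycan genes, 3 were tested and 0 called, with a median log2 difference of -0.08. Dcn, which encodes decorin, a small proteoglycan that binds collagen fibrils, stood at 368, 142, 207 and 147 TPM in Myc-labelled replicates 1 to 4, against 279.5, 148, 206 and 232 TPM in controls. Its means were 216.1 ± 105 TPM in Myc-labelled livers and 216.3 ± 54.7 TPM in controls (log2 difference -0.08 ± 0.31, limma adjusted p = 1.0). Bgn, the biglycan gene, stood at 199.8, 86.5, 82.9 and 84.7 TPM in Myc-labelled livers, against 143, 89.4, 127 and 171 TPM in controls. In 3 of the 4 Myc-labelled livers Bgn lay below all controls, and in replicate 1 above them (log2 difference -0.29 ± 0.31). Lum, which encodes lumican, ranged from 4.17 to 42.3 TPM in Myc-labelled livers and from 4.79 to 18.8 TPM in controls. Vcan, the gene of the large proteoglycan versican, was untested at a mean of 0.321 TPM, with 0.761, 0.110, 0.133 and 1.06 TPM in Myc-labelled livers against 0.0927, 0.0910, 0.134 and 0.193 TPM in controls. Like Tnc and Thbs1, it was highest in Myc-labelled replicates 1 and 4.

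Read over the set, 0 of 31 tested matrix genes were called in either direction, as for the 0% of all genes. Estimates were above 0 for 23 genes and below 0 for 8, while 7570 of all 13055 genes were above 0 and 5485 below. The median over the 31 genes was 0.19, against a median of 0.04 over all 13055 genes. The matrix genes varied together, with a median r of 0.75 over their 465 pairs, so their signs are not independent. The number of matrix genes whose groups did not overlap was 0, against 0.935% of all genes on the higher side and 0.322% on the lower side. Standard errors of the 31 genes ran from 0.19 to 0.80 log2 units, and their median residual SD was 0.67, against 0.30 over all tested genes. The median depended on several libraries. Without Myc-labelled replicate 1 it was -0.03, with 13 of 31 estimates above 0, against -0.04 over all genes. Bgn then had an unadjusted limma p under 0.05 on the lower side, as 184 of the 12932 genes tested in that setting did. Without Myc-labelled replicate 3, Lox and Fbln2 joined Thbs1 at an unadjusted limma p under 0.05 on the higher side. The whole table shifted with them, to 574 of 13116 genes on the higher side and 72 on the lower. The median was 0.46 without Myc-labelled replicate 3, against 0.12 over all genes. Leaving out control replicate 4 gave 0.33, and leaving out control replicate 2 gave 0.06, against 0.05 and 0.04 over all genes. With Xist as a covariate it was 0.29 and 0 matrix genes were called.

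**Figure D4:**
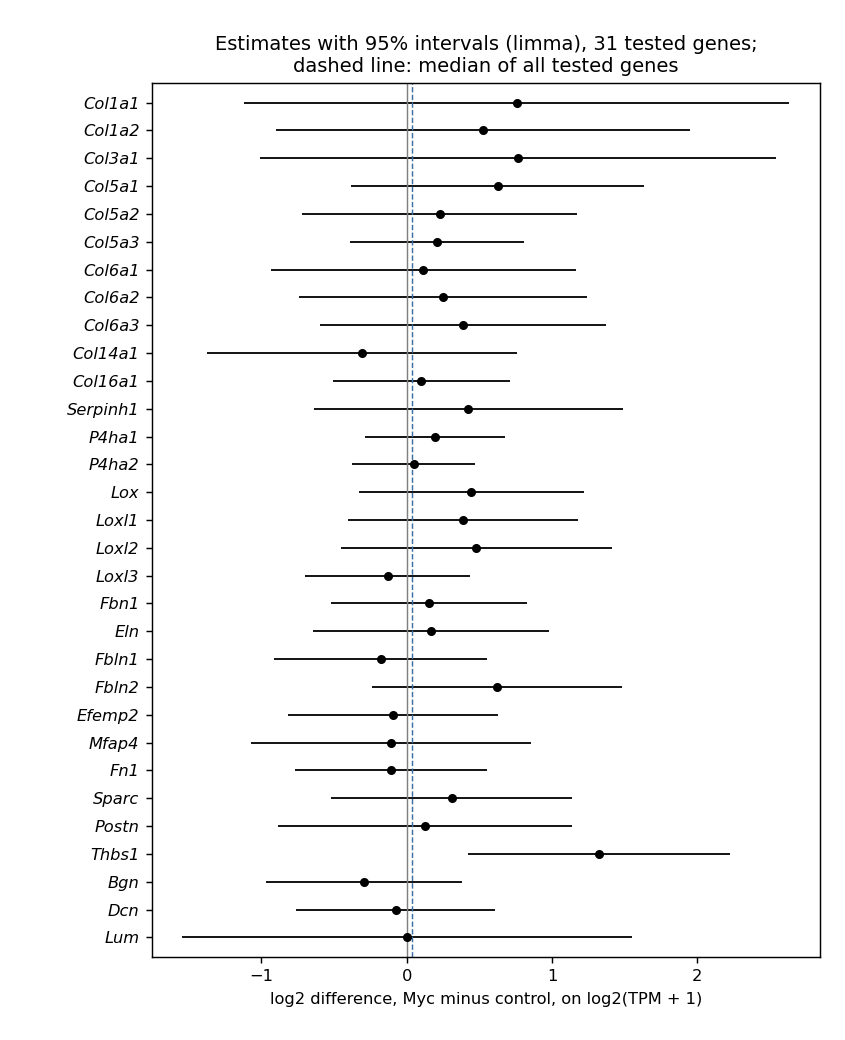
Log2 differences (Myc-labelled minus control, on log2(TPM + 1)) of the 31 tested matrix genes with 95% limma intervals, the dashed line marking the median of all tested genes at 0.04. The interval of Thbs1, from 0.42 to 2.22, is the only one of the 31 that leaves out 0.

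Ratios between chains and partners within a library were compared for 10 pairs. Exact two-sided permutation over 70 assignments cannot give less than p = 0.0286. Col3a1 to Col1a1 was 1.46, 1.93, 2.19 and 2.64 in Myc-labelled replicates 1 to 4 and 1.93, 1.80, 2.61 and 1.87 in control replicates 1 to 4, a log2 difference of 0.01 (exact permutation p = 1.0). Col1a2 to Col1a1 was 1.18, 1.06, 2.14 and 1.22 in Myc-labelled livers and 1.64, 2.31, 1.51 and 1.21 in controls (log2 difference -0.23, exact permutation p = 0.343). In both groups the liver with the least Col1a1 had the highest ratio of Col1a2 to Col1a1, of which Col1a1 is itself the denominator. The ratio of Dcn to Col1a1 spanned 6.26 to 46.9 in Myc-labelled livers and 9.85 to 45.95 in controls (log2 difference -0.83, exact permutation p = 0.314). Thbs1 to Thbs2 was 5.79, 6.86, 8.38 and 16.6 in Myc-labelled livers, against 1.64, 2.24, 8.65 and 3.36 in controls. That pair had the smallest p of the 10 (log2 difference 1.16, exact permutation p = 0.0857, Benjamini-Hochberg adjusted p = 0.612), and control replicate 3 overlapped the Myc-labelled range. Its denominator Thbs2 stood at only 0.423 to 2.29 TPM over the 8 libraries, with a mean of 0.935 TPM. For the other 6 pairs, Col5a2, Serpinh1 and Lox to Col1a1, Col5a1 to Col5a2, and Col6a2 and Col6a3 to Col6a1, the log2 differences ran from -0.53 to 0.40 with exact permutation p of 0.2 to 0.571. Linear ratios are of TPM, and log2 differences are of (TPM + 1) ratios.

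Across the 8 libraries most collagens varied with Col1a1 by Pearson's r, and fewer did so by Spearman's rho. Col1a1 was correlated with the 35 other genes on log2(TPM + 1), and p-values were from all 40320 pairings, adjusted over the 35. Pearson's r was above 0 for 34 of the 35, with a median of 0.82, against a median of 0.37 over all other tested genes. It exceeded 0.8 for 19 of 30 tested matrix genes (63.3%), against 4.78% of the 13054 other tested genes. Adjusted permutation p was under 0.05 for 25 genes by Pearson's r and for 13 by Spearman's rho. By Pearson's r these included 8 of the 12 other collagens, and Col5a3, Col8a1, Col12a1 and Col14a1 did not pass (r of 0.50 to 0.73, adjusted permutation p of 0.0529 to 0.213). By Spearman's rho the same genes did not pass, nor did Col6a1, Col6a2 and Col16a1 (adjusted permutation p of 0.0891 to 0.275). Col3a1 gave r = 0.98 and rho = 1.0 (adjusted permutation p = 0.000868 and 0.00174; unadjusted 2.48e-05, the smallest these pairings can give, and 4.96e-05), Col1a2 r = 0.98 and rho = 0.93 (adjusted permutation p = 0.00116 and 0.0112; unadjusted 9.92e-05 and 0.00223).

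Genes outside the collagen family tracked it too. Sparc gave r = 0.96 and rho = 0.98, and Serpinh1 r = 0.95 and rho = 0.98, both past the adjusted threshold by either measure. Dcn gave r = 0.54 and rho = 0.24 (adjusted permutation p = 0.187 and 0.582) and Thbs1 r = 0.66 and rho = 0.69 (adjusted permutation p = 0.0846 and 0.0972). The exception in sign was Fn1, at r = -0.75 and rho = -0.74 (adjusted permutation p = 0.0444 and 0.0891; unadjusted 0.0317 and 0.0458). Of 465 pairs among the 31 tested genes, 31 had r below 0, and 30 of those held Fn1.

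Leaving out Myc-labelled replicate 1 and control replicate 2, the libraries farthest from the median of Col1a1, left r at 0.97 for Col3a1, 0.97 for Col1a2, 0.87 for Sparc and 0.83 for Serpinh1. It was -0.87 for Fn1, -0.26 for Dcn and 0.16 for Thbs1, and the median over the 35 genes was 0.62. Over these 6 libraries 1 gene, Col3a1, passed the adjusted permutation threshold. Fewer libraries allow fewer pairings, so a lost call alone does not show that a relation rests on the libraries left out. Several r were about as far from 0 or farther without them, such as 0.92 for Eln and 0.90 for Mfap4, against 0.89 and 0.81 over all 8, while Col6a1 was at 0.35, Col8a1 at 0.08 and Col12a1 at -0.11. Deviations from the group means, which remove any shift between groups, gave a median r of 0.87 and 19 genes under an adjusted permutation p of 0.05. All values share the libraries' scaling to TPM, and Myc-labelled replicate 1 also had the highest median over all genes.

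**Figure D5:**
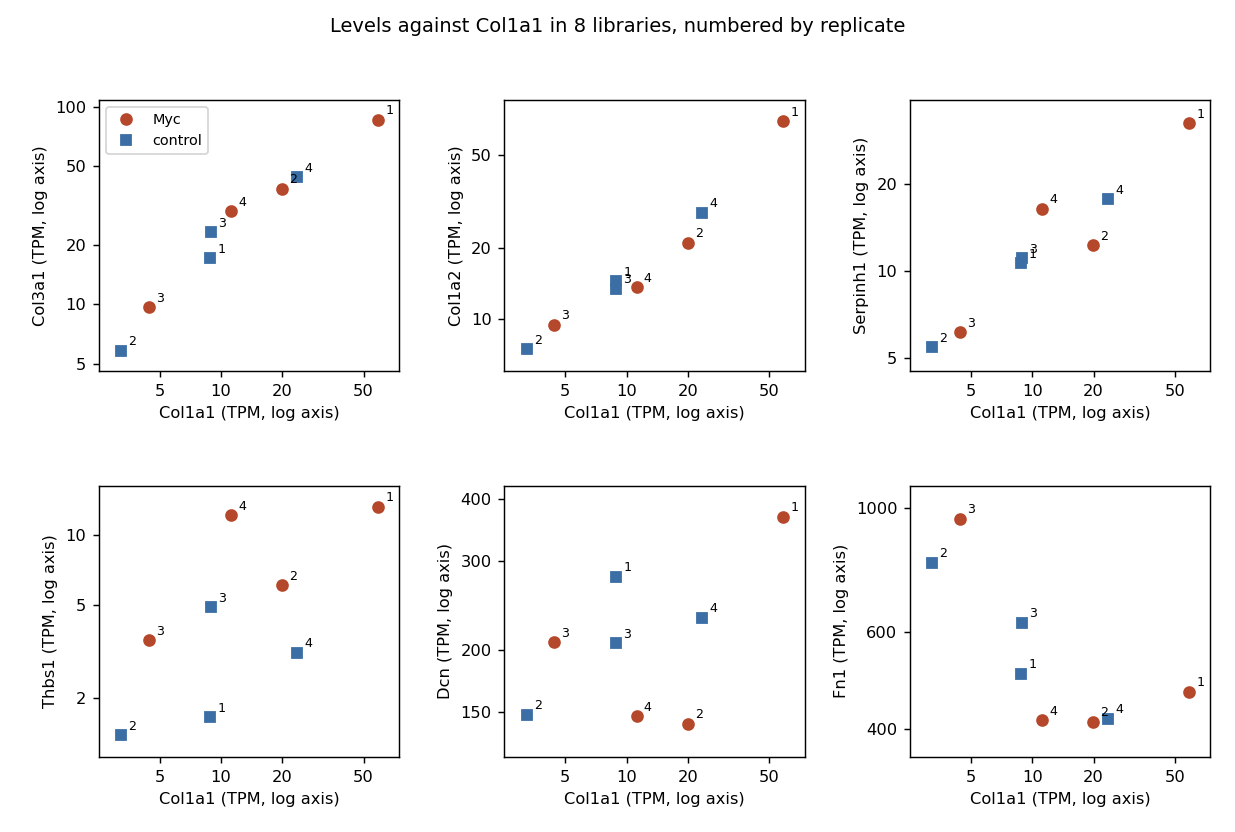
TPM of Col3a1, Col1a2, Serpinh1, Thbs1, Dcn and Fn1 against TPM of Col1a1 in 4 Myc-labelled (circles) and 4 control (squares) libraries, both axes logarithmic and points numbered by replicate. Col3a1 and Col1a2 follow Col1a1 over the whole range, Dcn does not order with it, and the 2 libraries lowest in Col1a1 are the 2 highest in Fn1.

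Other genes of the pathway, from 3 lists chosen with earlier results known, also had 0 calls in either direction. Of 24 further collagen biosynthesis genes 19 were tested, with 12 estimates above 0 and a median log2 difference of 0.14. The smallest p belonged to Loxl4, a further lysyl oxidase, at 2.64, 1.36, 1.95 and 2.40 TPM in Myc-labelled replicates 1 to 4 and 0.787, 0.629, 1.93 and 0.902 TPM in controls (log2 difference 0.60 ± 0.25, limma adjusted p = 1.0). Fkbp10, a collagen chaperone, averaged 3.46 ± 2.52 TPM in Myc-labelled livers and 1.63 ± 0.372 TPM in controls. P3h1, a prolyl hydroxylase, averaged 14.4 ± 1.63 TPM in Myc-labelled livers and 11.8 ± 0.975 TPM in controls. P3h1 was the 1 gene of the 19 whose groups did not overlap (12.95 to 16.7 TPM in Myc-labelled livers against 10.6 to 12.8 TPM in controls), where 0.935% of all tested genes did not overlap on the higher side. It did not pass (log2 difference 0.27 ± 0.15, limma adjusted p = 1.0).

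Of 30 other interstitial matrix genes 17 were tested, with 6 estimates above and 11 below 0 and a median of -0.09. Prelp, a leucine-rich matrix proteoglycan, averaged 38.6 ± 11.1 TPM in Myc-labelled livers and 53.4 ± 14.7 TPM in controls. Col27a1, a minor fibrillar collagen, averaged 2.54 ± 1.38 TPM and 1.41 ± 0.484 TPM in Myc-labelled and control livers, and the elastic fibre gene Fbln5 1.86 ± 1.52 TPM and 3.01 ± 1.17 TPM. Of 16 collagen receptor and turnover genes 11 were tested, with 10 estimates above 0 and a median of 0.15. Timp1, an inhibitor of collagenases, stood at 21.8, 11.6, 4.52 and 18.3 TPM in Myc-labelled replicates 1 to 4, against 8.43, 3.95, 3.73 and 7.64 TPM in controls. As for Thbs1, its highest values lay in Myc-labelled replicates 1 and 4 (log2 difference of Timp1 1.0 ± 0.43, limma adjusted p = 1.0). The collagen receptor gene Ddr1 averaged 9.41 ± 3.66 TPM in Myc-labelled livers and 7.24 ± 3.97 TPM in controls, and the collagen-degrading protease gene Ctsk 3.04 ± 3.28 TPM and 1.60 ± 0.859 TPM.

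Marker genes of some cell types moved with the matrix genes and others did so in some libraries only. Their part in the result was not tested. The 8 quiescent stellate cell markers summed to 94.7, 40.6, 35.4 and 50.9 TPM in Myc-labelled replicates 1 to 4 and to 65.2, 33.3, 66.7 and 77.2 TPM in controls, and 7 of the 8 were highest in Myc-labelled replicate 1. The 6 myofibroblast markers summed to 55.3, 40.8, 12.7 and 28.9 TPM in Myc-labelled livers, against 14.4, 10.1, 21.8 and 27.4 TPM in controls. In both lists the lowest Myc-labelled sum was in replicate 3 and the lowest control sum in replicate 2, as for Col1a1. Colec10, Colec11, Ngfr, Rgs5, Acta2, Tagln, Actg2 and Pdgfrb were each lowest in the same libraries, but other markers were not. Hhip was highest of all in Myc-labelled replicate 3 (1.52 TPM). Lrat, Reln and Des were lowest of the Myc-labelled livers in replicate 2. Pdgfra was lowest in replicate 4 of the Myc-labelled livers and replicate 3 of the controls. The 5 mesothelial markers are genes of the liver capsule. They summed to 34.3 TPM in Myc-labelled replicate 1 and to 7.04 to 10.6 TPM in the other Myc-labelled livers. In control replicates 1 to 4 they summed to 20.8, 16.2, 14.9 and 13.7 TPM. The lowest of these was in replicate 4, the control highest in matrix transcripts by median deviation. Vascular smooth muscle markers (4 genes) summed to 13.97 to 27.3 TPM in Myc-labelled livers and 13.1, 19.7, 21.2 and 23.4 TPM in control replicates 1 to 4. Portal fibroblast markers (7 genes) summed to 53.8 to 106 TPM in Myc-labelled livers and 71.8, 78.5, 56.8 and 69.8 TPM in control replicates 1 to 4. Myc-labelled replicate 3 was the lowest of its group in both lists. Control replicate 2 was the lowest control in neither, and the highest control for portal fibroblast markers. Gas6 supplied most of the portal fibroblast sum in every library (43.2 to 91.2 TPM in Myc-labelled livers and 44.7 to 70.2 TPM in controls), and 3 of the 7 genes averaged 1 TPM or more.

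Epithelial, endothelial and immune cell markers shared some of the libraries at the ends of the matrix range, and their part was not tested either. The 8 cholangiocyte markers summed to 450.5, 291, 119.9 and 972 TPM in Myc-labelled replicates 1 to 4 and 159, 102, 325 and 204 TPM in controls, most of it Spp1. The lowest sums were again in Myc-labelled replicate 3 and control replicate 2. The 8 hepatocyte markers summed to 64473 to 100312 TPM in Myc-labelled livers and 63046 to 123106 TPM in controls. Neutrophil markers (6 genes) reached 153 TPM in Myc-labelled replicate 4, a library high in Thbs1, against 24.3 to 69.7 TPM in the other Myc-labelled livers. Among controls the order of the ends was reversed. Their sum was lowest (13.95 TPM) in control replicate 3, the control highest in Thbs1 (4.92 TPM). It was highest (66.8 TPM) in control replicate 2, the control lowest in Thbs1 (1.39 TPM). Sinusoidal endothelial markers (6 genes) ranged from 94.8 to 166 TPM in Myc-labelled livers and from 123 to 181 TPM in controls, pan-endothelial markers (6 genes) from 30.6 to 51.8 TPM and from 37.05 to 53.7 TPM, and Kupffer cell markers (6 genes) from 346 to 771 TPM and from 558 to 917 TPM. These 3 lists were highest in Myc-labelled replicate 1 and in control replicate 4 within their groups, the 2 libraries highest in matrix transcripts by median deviation. The low ends matched less. Kupffer cell markers summed to 346 TPM in Myc-labelled replicate 3 but to 850 TPM in control replicate 2. Both endothelial lists were lowest in Myc-labelled replicate 4 and in control replicate 3 within their groups. Of 5 exocrine pancreas markers 4 were listed at 0 in all libraries, and the fifth, Cela1, stood at 5.03 to 12.98 TPM.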

How the data were processed

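RNA from 8 whole livers was analysed, 4 per group. Per the labels' protocols, an mRNA kit was used on TRIzol-extracted total RNA. Per the submitters' processing notes reads were handled with HISAT2 and StringTie on mm10, with no versions given. TPM was deposited by the authors, sums to 1000000 per library, and was the unit tested. The deposited FPKM served as an alternative. Per the file headers a coverage signal stands beside both; its most common ratio to FPKM gave aligned bases, if StringTie scales FPKM by these. No read counts were used. Gene IDs listed more than once (10 to 15 in a library) had their values added.

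The test was limma's (version 3.58.1 in R 4.3.3, two-sided, with trend and robust options) on log2(TPM + 1), Benjamini-Hochberg adjusted over the 13055 genes averaging 1 TPM or more. The pipeline was tested on simulated data. Python 3.11.15, scipy 1.17.1, pandas 2.3.3 and numpy 2.4.6 did the rest. Described in full were the 2 most abundant genes of each of 7 roles and the one with the smallest p, and 3 genes by smallest p from each further list. Col1a1 was taken as the anchor of ratios and correlations. Members and lists were chosen with earlier results of these data known. The promoters shown were chosen after the correlations were seen.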

Additional observations from a re-analysis of the deposited data

Results flagged for a closer look

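Within groups of 4 libraries, the gap of the highest or lowest library to its nearest neighbour was divided by the group's range on log2(TPM + 1). It was above Dixon's 95% critical value for 4 libraries in 5 of 84 groups examined, and chance alone flags about 1 in 20 groups. In the Myc-labelled livers Bgn was far higher in replicate 1 than in the other 3 (gap of 0.953 of the range), and Loxl2 was also set apart there (0.838). Fn1 was set apart upward in Myc-labelled replicate 3 (0.853), the library in which Myc itself was set apart downward (0.863). Among the controls Lox was set apart downward in replicate 2 (0.912). No cause of these values was tested.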

How the results depend on the processing

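Matrix genes called numbered 0 in each direction in every setting run: pseudocounts of 0.1 and 5, no filter and a mean of at least 5 TPM, median-of-ratios scaling, quantile normalization, FPKM, no trend or robust step, array weights, the replicate block, the Xist covariate (chosen after seeing the data) and each library left out. With no filter all 36 genes were tested, with 28 estimates above 0. Array weights called 1 lower gene in the whole table, which is no matrix gene. The median log2 difference of the matrix genes ranged from -0.03 to 0.46 when 1 library was left out. With the replicate block it was 0.19 as before, and 0 matrix genes were called. Same-numbered libraries deviated together at r = 0.128, -0.0579, 0.0652 and 0.0704, so the numbers were not taken as pairs, and the block left 1 matrix gene, Thbs1, under an unadjusted p of 0.05. Signs of some estimates turned, and not only of small ones. Col1a2 was 0.53 in the main setting and -0.0302 without Myc-labelled replicate 1. P4ha2 was -0.000847 after quantile normalization, the Col3a1 to Col1a1 log2 ratio difference was -0.0113 with a pseudocount of 0.1, and Myc was 0.23 with array weights. With 1 library left out the log2 differences ranged from -0.0302 to 0.89 for Col1a2, -0.40 to 0.40 for Col6a1, -0.67 to 0.14 for Col14a1, -0.0240 to 0.16 for P4ha2, -0.0187 to 0.57 for Sparc, -0.40 to 0.14 for Efemp2, -0.0802 to 0.48 for Eln, -0.40 to 0.0519 for Fn1, -0.37 to 0.0865 for Dcn and -0.91 to 0.43 for Myc. Log2 ratio differences then ranged from -0.12 to 0.14 for Col3a1 to Col1a1 and from -0.72 to 0.00240 for Lox to Col1a1. Genes correlated with Col1a1 (25 of 35 over all 8 libraries) numbered 1 without the 2 libraries farthest from its median, where only 6 libraries remain, and were 19 on deviations from group means. The causes of sign changes were not tested. With 4 livers per group, the 95% interval of Col1a1 ran from -1.12 to 2.63, so for this gene changes of several-fold could not be told from none. It was the widest interval of the tested matrix genes, and the narrowest, that of P4ha2, ran from -0.37 to 0.47.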

Other observations

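Since Myc did not follow the labels, its level was also set against the 36 matrix genes across the 8 libraries, a comparison chosen after the data were seen. Pearson's r on log2(TPM + 1) ranged from -0.51 to 0.74 with a median of 0.34. The highest was that of Col14a1 (r = 0.74, rho = 0.52, permutation p = 0.049 and 0.197), which had an adjusted permutation p of 0.66 over the 36 genes. No matrix gene passed that adjustment, and the unadjusted permutation p was under 0.05 for 1 gene by Pearson's r (Col14a1) and 1 by Spearman's rho (Lox, r = 0.50, rho = 0.76, permutation p = 0.191 and 0.0368). Without the 2 libraries farthest from the median of Myc, r of Col14a1 was 0.67.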
